A study of Mus musculus with 4 samples.

Results

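Wnt genes encode secreted lipid-modified glycoproteins. The 10 ligands described here are Wnt2, Wnt4, Wnt5a, Wnt5b, Wnt6, Wnt7a, Wnt7b, Wnt9a, Wnt11 and Wnt16, chosen by symbol. All 10 are among the 31053 genes listed in the count matrices, which hold 19 Wnt ligand genes in all. Their RNA was followed across the layers of the neonatal mouse oviduct and uterus: the lining epithelium, the mesenchyme beneath it, the smooth muscle and the outer mesothelium. The mice were wild type and untreated CD1 (ICR, Strain Code:022) pups at postnatal day 3. There were 2 single-cell RNA libraries per organ (10x Genomics Chromium, 3' chemistry), and each library pooled the organs of 3 or 4 neonates. Oviducts and uteri came from the same pups, so the organs share animals but no allele, drug or transgene distinguishes them. Since each library is a pool, a p-value measures the spread between pools and not between animals.

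A secreted Wnt needs the acyltransferase Porcn and the carrier Wls to leave the cell. It then binds Frizzled receptors, with the co-receptors Lrp5 and Lrp6 in the beta-catenin pathway or with Ror receptors in pathways that act on cell shape and polarity. In the Müllerian duct, from which oviduct and uterus form, Wnt4 is needed for the duct to form, epithelial Wnt7a for its regional patterning, and mesenchymal Wnt5a for its outgrowth and gland formation.

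The 4 libraries held 26619 called barcodes, of which 20164 were kept after removal of low-quality barcodes and probable doublets. Total counts were 114419939 and 82213345 UMIs (unique molecular identifiers, 1 per captured molecule) in the oviduct libraries against 61117726 and 70172415 in the uterine ones. The quality limits removed 11.4% and 13.8% of the oviduct barcodes and 29.0% and 28.7% of the uterine ones. Between 8 and 15 barcodes were shared by any pair of libraries. Cells were assigned by fixed marker genes that include no Wnt gene, and 15367 cells (76.2%) fell into 7 classes. The epithelium held 103 and 190 oviduct cells but 36 in each uterine library. The mesothelium held 410 and 414 oviduct cells but 68 and 57 uterine cells. Mesenchyme (1705 to 3383 cells per library) and smooth muscle (712 to 943) were larger. Mesenchyme and muscle form a range without a gap: 291 to 361 smooth muscle cells per library stood exactly at the limit of 6 muscle markers, and 344 to 450 cells with exactly 5 were left out of both classes.

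All 12 epithelial markers were detected in the epithelium of both organs, with a summed level of 33.2 to 40.6 per 10000 UMIs against 0.213 to 0.277 in mesenchyme. The 9 mesothelial markers summed to 21.6 to 24.2 per 10000 in the mesothelium and to at most 0.675 in the other 3 layers. Mesothelial cells also carried the matrix genes of the mesenchyme list, at 62.7 to 71.8 per 10000 in the oviduct against 89.8 to 112 in the uterus. The 9 muscle markers summed to 6.79 to 7.32 per 10000 in oviduct mesothelium and to 14.9 to 15.1 in uterine mesothelium. Some class markers differed between the organs within a class. In mesenchyme all 10 mesenchyme markers were detected in both organs, and their sum was 99.0 to 102 per 10000 in the oviduct against 45.5 to 46.9 in the uterus. In smooth muscle the sum of all 9 muscle markers was 93.4 to 95.4 in the oviduct against 67.8 in both uterine libraries. Smooth muscle also carried the mesenchyme markers, at 57.1 to 61.2 per 10000 in the oviduct. In uterine smooth muscle they summed to 49.8 to 54.7, above the uterine mesenchyme. The part of these marker levels and shifts in the organ and layer results below was not tested. Levels along the muscle-marker range are given further on as a description. Of the ovary markers, which would reveal attached ovary, Amh, Ddx4 and Dazl were at or below 0.724 CPM (UMIs of a gene per 1000000 UMIs of the class in a library) in all layers. Foxl2 reached 110 and 115 CPM in oviduct mesenchyme and 59.8 and 53.6 in uterine mesenchyme, and Inha 3.31 to 9.46 CPM in the 4 layers. In smooth muscle Foxl2 was higher still in the oviduct, at 134 and 152 CPM against 34.3 and 38.1 in uterine muscle. The part of Foxl2 in the results was not tested.

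The promoters of Wnt16, Wnt7a and Wnt11 are shown because these ligands differed most between the organs in the epithelium together with Wnt5b. Sequences are from RefSeq on GRCm38.p6, run 5′ to 3′ on the gene's strand from 250 bases before the annotated start to 50 after it, and cover 8 of the 10 ligands. The motifs were searched on both strands: the TCF/LEF core CTTTGA, the nuclear receptor half-site AGGTCA, the PBX-HOX site TGATTNAT and the TATA box TATAAA. Capitals mark matches.
Wnt16 (chr6:22287977-22288276, plus strand): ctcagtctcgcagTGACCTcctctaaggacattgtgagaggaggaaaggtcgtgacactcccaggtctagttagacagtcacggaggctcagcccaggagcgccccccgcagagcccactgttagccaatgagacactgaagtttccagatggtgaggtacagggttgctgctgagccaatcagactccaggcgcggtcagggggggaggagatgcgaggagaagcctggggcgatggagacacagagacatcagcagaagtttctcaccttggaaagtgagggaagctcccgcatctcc
Wnt7a (chr6:91411304-91411603, minus strand): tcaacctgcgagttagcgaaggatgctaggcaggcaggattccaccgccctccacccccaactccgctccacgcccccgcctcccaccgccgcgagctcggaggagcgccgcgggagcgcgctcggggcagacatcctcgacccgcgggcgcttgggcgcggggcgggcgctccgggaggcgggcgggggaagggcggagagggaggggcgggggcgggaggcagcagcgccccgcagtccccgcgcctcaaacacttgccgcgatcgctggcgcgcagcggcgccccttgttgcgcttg
Wnt11, upstream start (chr7:98834862-98835161, plus strand): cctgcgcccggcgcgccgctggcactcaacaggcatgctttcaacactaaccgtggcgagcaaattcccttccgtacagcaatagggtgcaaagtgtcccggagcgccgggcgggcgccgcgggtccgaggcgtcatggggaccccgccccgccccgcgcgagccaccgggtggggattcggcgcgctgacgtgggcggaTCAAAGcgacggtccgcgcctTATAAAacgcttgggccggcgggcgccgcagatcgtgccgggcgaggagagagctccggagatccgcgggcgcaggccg

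The Wnt16 window holds 1 nuclear receptor half-site, read on the opposite strand as TGACCT, 237 bases before the start. Such a half-site occurs in 16.3% of the 32851 windows of this length in the table. Its GC content is 58%, against a median of 52.7% over all windows. The Wnt7a window is 76% GC and holds no match to any of the 4 motifs. At the upstream Wnt11 start a TCF/LEF core lies 50 bases before the start and a TATA box 29 bases before it. These motifs occur in 16% and 13.6% of all windows. A TCF/LEF core also lies 71 bases before the most internal of the Wnt5b starts, while the windows of Wnt2, Wnt4, Wnt6 and Wnt9a hold none of the 4 motifs. Wnt5a and Wnt7b have no entry in the table. A match describes letters only. Wnt16, Wnt2, Wnt7a and Wnt5b all lie on chromosome 6 (Wnt16 at 22288227 to 22298522, Wnt7a at 91363981 to 91411363), Wnt4 on chromosome 4, Wnt11 on 7, Wnt5a on 14, Wnt7b on 15, Wnt9a on 11 and Wnt6 on 1.

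Most ligands differed between the organs in at least 1 layer. UMI counts were summed per library and class, and the 2 oviduct sums were compared with the 2 uterine sums by edgeR's quasi-likelihood test, with Benjamini-Hochberg adjustment over all genes of the layer and a threshold of 0.05. In epithelium 6 of the 8 ligands tested passed, 3 with more in the oviduct and 3 with more in the uterus, while 21.2% of all genes tested passed (13.4% higher in the oviduct, 7.79% in the uterus). Mesenchyme had 7 of 10, 4 with more in the oviduct and 3 with more in the uterus, beside 43.1% of all genes (22.9% and 20.2%). Smooth muscle had 7 of 9, 3 with more in the oviduct and 4 with more in the uterus, beside 32.1% (17.3% and 14.9%). In mesothelium only 2 of 9 passed, both higher in the uterus, where 7.96% of all genes passed (4.7% higher in the oviduct, 3.27% in the uterus). The median log2 fold change of the tested ligands, coded oviduct minus uterus, was -0.38 in epithelium, -0.09 in mesenchyme, -0.37 in smooth muscle and 0.03 in mesothelium. Over all genes it was within 0.01 of 0 in each layer. In simulated data this test called more false genes than its nominal level in mesenchyme and smooth muscle, so that calls near the threshold are less firm there.

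**Figure D1:**
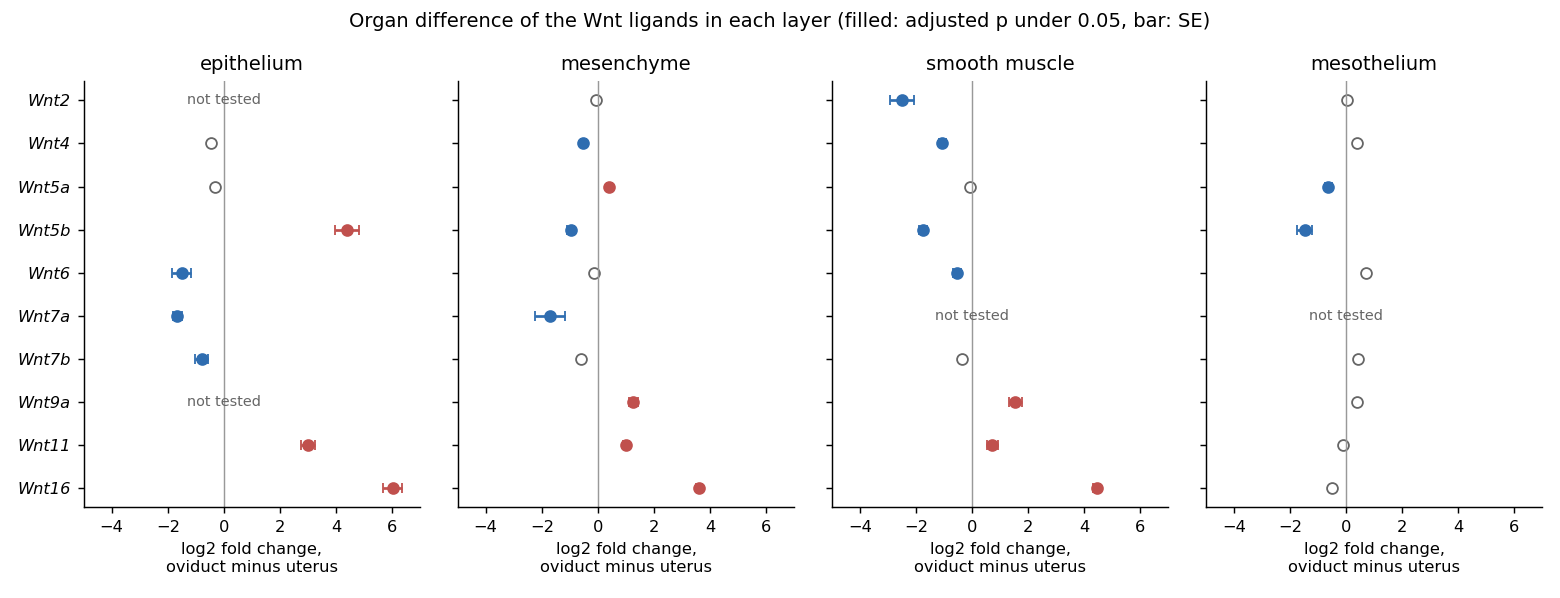
Log2 fold change between the organs (x axis, oviduct minus uterus) of each ligand (y axis) in the 4 layers. Filled points passed the test at an adjusted p under 0.05 and carry an SE derived from the F statistic of the test, open points did not. Wnt16 lies farthest to the oviduct side in epithelium, mesenchyme and smooth muscle (log2 fold changes 6.01, 3.59 and 4.44) and does not pass in mesothelium.

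Wnt16, a ligand known from bone and joint, showed the largest organ difference. In epithelium its level was 85.6 and 93.1 CPM in the oviduct libraries against 1.45 and 1.51 in the uterine ones, the latter from 2 and 3 UMIs. In mesenchyme it was 316 and 285 CPM in the oviduct against 23.4 and 24.7 in the uterus. In smooth muscle the values were 82.4 and 84.4 CPM against 4.18 and 3.45. The organs did not overlap in any of these 3 layers. The log2 fold changes were 6.01 ± 0.33 (SE) in epithelium, 3.59 ± 0.10 in mesenchyme and 4.44 ± 0.12 in smooth muscle (adjusted p at most 9.77e-09 by edgeR). In epithelium the ratio of the pooled counts (1190 and 5 UMIs) was 60.5, with a 95% interval from counting alone of 25.8 to 187. This interval is wider than the SE allows, since the SE is derived from the F statistic and understates counting error at such counts. Mesothelium stood apart: Wnt16 was 3.95 and 3.27 CPM in oviduct libraries, while uterine libraries had 0.675 and 9.93, which overlap them. These values rest on few cells. In the first oviduct library 15 of 410 mesothelial cells held Wnt16, and 34 of the 58 UMIs came from a single cell. In the second uterine library 11 of the 14 UMIs came from a single cell.

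Wnt7a, the epithelial ligand of the Müllerian duct, was an epithelial ligand in both organs. It was measured at 36.7 and 39.4 CPM in oviduct epithelium and at 131 and 133 CPM in uterine epithelium, where the organs were far apart. Its log2 fold change was -1.66 ± 0.17 (edgeR adjusted p = 3.41e-06). In the other 6 classes it was at most 0.709 CPM in any library. Mesenchyme held 4, 7, 12 and 13 UMIs in the 4 libraries. That difference passed (log2 fold change -1.72, edgeR adjusted p = 0.0191), but 14.5% of the oviduct and 5.74% of the uterine counts could be free RNA, and the call was lost with DESeq2 (adjusted p = 0.186) and when the first oviduct library or either uterine library was left out (0.0924 to 0.194).

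Wnt7b, a close relative of Wnt7a, had its highest level in the epithelium too, with 11.9 and 14.2 CPM in the oviduct against 26.1 and 24.2 in the uterus. It was higher in the uterus by edgeR (log2 fold change -0.80 ± 0.24, adjusted p = 0.0245), though not by DESeq2 (adjusted p = 0.264) nor without the first oviduct (0.147) or the second uterine library (0.064). Unlike Wnt7a it was also present in mesothelium, at 7.50 and 8.94 CPM in the oviduct against 6.75 and 5.67 in the uterus. Smooth muscle held 0.922 to 1.84 CPM and mesenchyme 0.395 to 0.725 CPM. The antisense transcript AU022754 overlaps Wnt7b and was at 1.34 to 2.90 CPM in epithelium.

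Wnt11, a ligand known from kidney and heart development that acts mainly outside the beta-catenin pathway, marked the oviduct epithelium. Levels there were 66.2 and 73.5 CPM, against 7.24 and 11.1 in uterine epithelium, with no overlap. The log2 fold change was 3.01 ± 0.25 (edgeR adjusted p = 3.33e-07). Mesenchyme showed a smaller difference in the same direction, with 19.7 and 20.6 CPM in the oviduct against 8.85 and 10.7 in the uterus (edgeR log2 fold change 0.99 ± 0.11, adjusted p = 1.54e-05). In smooth muscle the levels of 6.61 and 6.15 against 4.09 and 3.60 CPM gave 0.73 ± 0.19 (adjusted p = 0.0132), a call lost with DESeq2 (0.156), with a stricter class definition (0.427) and without the first oviduct (0.0522) or second uterine library (0.0854). Mesothelial levels were 12.3 to 14.9 CPM in the 4 libraries and did not differ detectably.

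Wnt5b had the opposite organ difference in epithelium and in the other layers. In oviduct epithelium it was at 24.5 and 22.6 CPM, whereas uterine epithelium held 0.724 and 1.51 CPM from 1 and 3 UMIs. The pooled count ratio was 19.7 (95% counting interval 7.61 to 72.7), and the log2 fold change 4.40 ± 0.43 (edgeR adjusted p = 1.79e-06). In mesenchyme the order turned, with 10.4 and 13.3 CPM in the oviduct against 21.1 and 23.5 in the uterus. Smooth muscle had 6.67 and 7.92 CPM in the oviduct against 25.0 and 23.3 in the uterus, and mesothelium 12.5 and 7.50 against 27.7 and 29.8. The log2 fold changes were -0.97 ± 0.12, -1.74 ± 0.13 and -1.48 ± 0.27 (adjusted p = 2.86e-05, 1.59e-06 and 0.00293). No layer showed overlap between the organs. The difference of the organ effects between epithelium and mesenchyme was itself tested in a joint fit of the 4 layers with a term per library and reached 5.38 ± 0.52 (edgeR adjusted p = 8.14e-08). Fbxl14, which overlaps Wnt5b on the other strand, was at 13.0 to 28.2 CPM in all layers and libraries. Whether the authors' counting used strand is not given in the sources used here, and whether such overlapping pairs share reads was not tested.

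Wnt5a, the mesenchymal ligand of duct outgrowth, was abundant in 3 layers and changed its organ order between them. Mesenchyme held 282 and 279 CPM in the oviduct against 215 and 194 in the uterus, a difference towards the oviduct (log2 fold change 0.40 ± 0.08, edgeR adjusted p = 0.00177). Mesothelium went the other way, with 139 and 134 CPM in the oviduct against 203 and 225 in the uterus (-0.63 ± 0.13, adjusted p = 0.00691, lost without the second uterine library at 0.1). In smooth muscle the libraries overlapped, at 228 and 241 against 263 and 233 CPM (log2 fold change -0.09, adjusted p = 0.436). That value passed towards the uterus under the stricter class definition (-0.40, adjusted p = 0.0227) and with classes from clusters (-0.682, adjusted p = 5.73e-06). Epithelium held 58.6 and 58.7 CPM in the oviduct against 82.5 and 77.6 in the uterus, which did not pass (-0.31, adjusted p = 0.215).

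Wnt4, needed for Müllerian duct formation, was higher in the uterus in the mesenchyme and the muscle. The mesenchyme contained 131 and 129 CPM in the oviduct against 191 and 171 in the uterus (log2 fold change -0.53 ± 0.08, edgeR adjusted p = 0.000249). Smooth muscle contained 76.6 and 58.9 against 148 and 133 CPM (-1.06 ± 0.12, adjusted p = 3.8e-05). Both layers kept the organs apart. Mesothelium had 122 and 104 CPM in the oviduct against 84.4 and 90.0 in the uterus, also without overlap but in the other direction and not past the threshold (0.39, adjusted p = 0.139). Epithelial levels were 44.6 and 39.4 against 70.2 and 56.5 CPM (-0.45, adjusted p = 0.0939).

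Wnt6, a ligand also known from the decidualising uterus, was a mesenchymal ligand in both organs, at 117 and 92.7 CPM in the oviduct against 111 in both uterine libraries. These values overlapped (log2 fold change -0.12, edgeR adjusted p = 0.378). In smooth muscle it was at 32.4 and 23.7 against 41.5 and 39.2 CPM (-0.53 ± 0.13, adjusted p = 0.00981). That call was lost without the second oviduct library (adjusted p = 0.0544) and with classes from clusters (-0.01, 0.979). Epithelium held little, 4.82 and 4.30 CPM in the oviduct against 10.9 and 16.6 in the uterus (-1.50 ± 0.34, adjusted p = 0.00449), lost with DESeq2 (0.0944) and without the second uterine library (0.13). Of the 48 uterine epithelial Wnt6 UMIs, 16 came from a single cell of the second library. In mesothelium the second uterine library (35.4 CPM) lay near the oviduct values of 40.9 and 36.8 CPM, and the first at 12.8. The difference did not pass (0.71, edgeR adjusted p = 0.169). It did with the replicate number as a block (0.73, adjusted p = 0.00901) and with no filter on low counts (0.762, adjusted p = 0.00662). Without the second oviduct library the log2 fold change was 0.792, and without the second uterine library 1.629. No alternative changed its sign.

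Wnt2 and Wnt9a were mesothelial ligands. Wnt2, known for its role in lung formation, stood at 39.7 and 39.8 CPM in oviduct mesothelium and at 37.1 and 41.8 in uterine mesothelium. The organs overlapped (log2 fold change 0.03, edgeR adjusted p = 0.965). Its next level was in uterine pericytes, the mural cells of small vessels, at 14.1 and 12.8 CPM, against 3.34 and 0 in oviduct pericytes. Smooth muscle held 11 UMIs in the oviduct against 56 in the uterus, with levels of 0.445 and 0.307 against 1.92 and 2.42 CPM (log2 fold change -2.50 ± 0.41, adjusted p = 0.000719). The 9 pericyte markers, of which 9 were detected in oviduct and 8 in uterine smooth muscle, summed to 1.29 to 1.44 per 10000 in the former and to 1.02 to 1.17 in the latter. Wnt9a, known from joint and liver development, was at 26.9 and 33.5 CPM in oviduct mesothelium and at 26.3 and 19.9 in the uterus (0.39, adjusted p = 0.345). It was higher in the oviduct in mesenchyme, with 7.87 and 9.22 against 2.94 and 3.90 CPM (1.26 ± 0.17, adjusted p = 5.99e-05), and in smooth muscle, with 5.91 and 5.84 against 1.75 and 2.20 CPM (1.55 ± 0.23, adjusted p = 0.000329). In epithelium Wnt2 and Wnt9a were too low to be tested, with 1 and 9 UMIs over the 4 libraries.

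**Figure D2:**
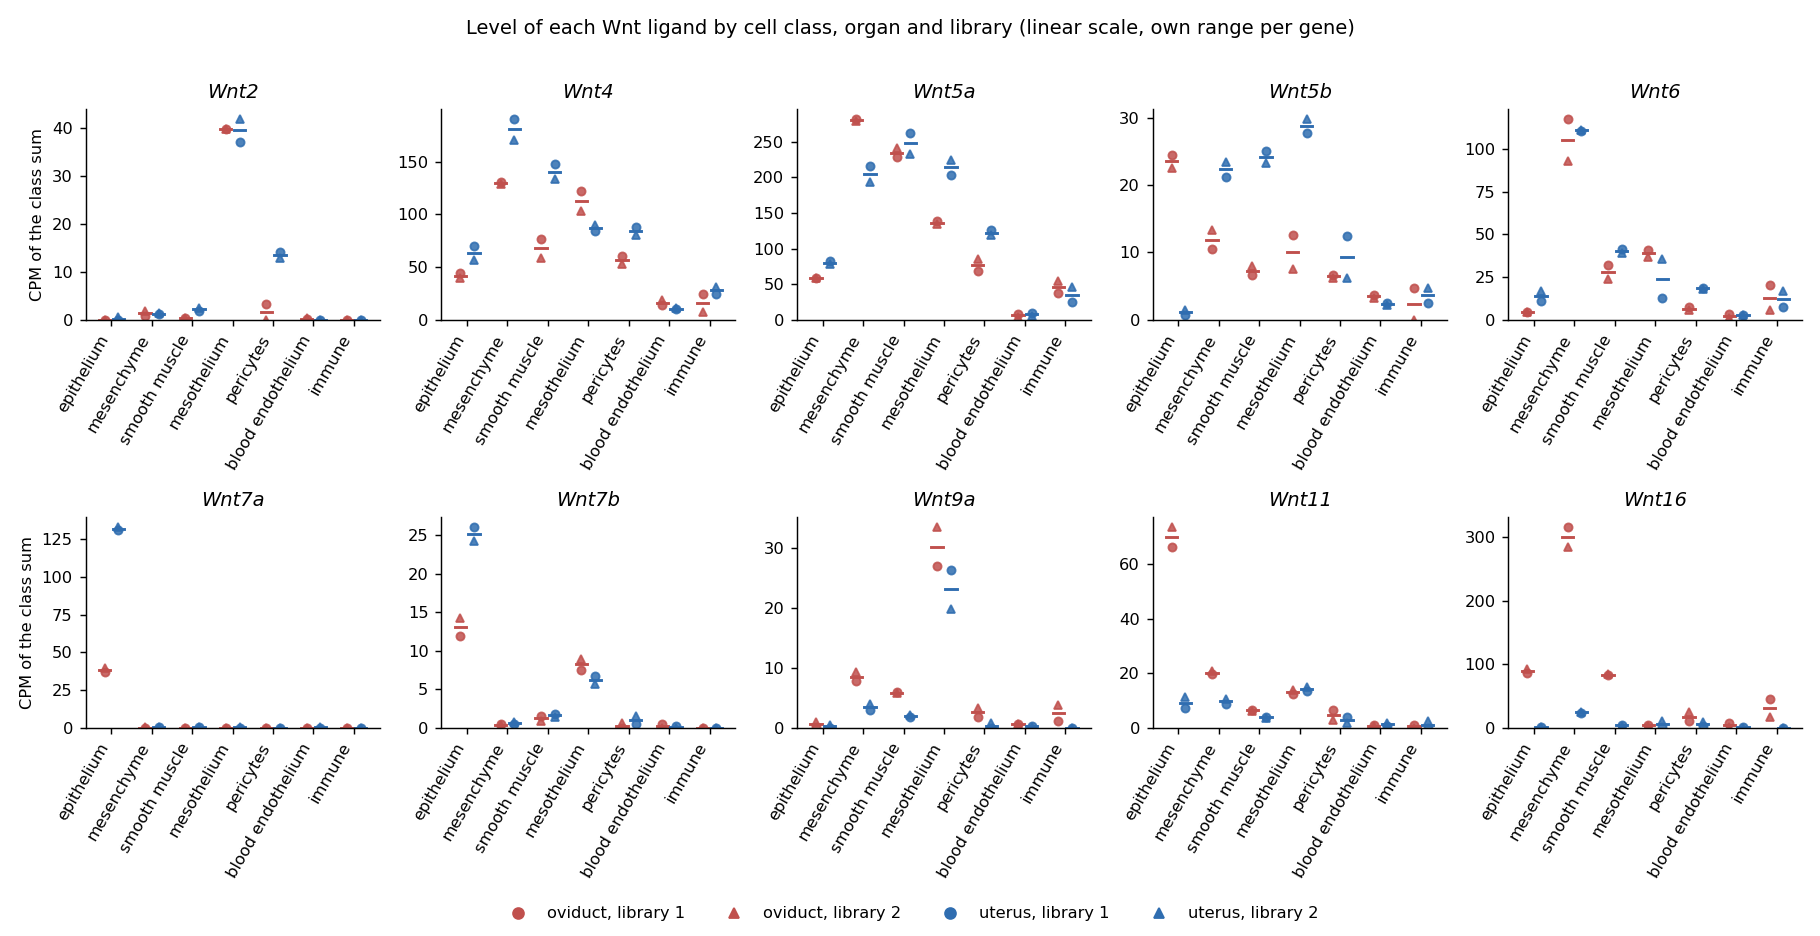
Level of each ligand (y axis, CPM of the class sum, linear, own range per gene) in the 7 cell classes (x axis). Points are libraries, red for oviduct and blue for uterus, and short lines are means of 2 libraries. Wnt7a is seen in epithelium, Wnt2 and Wnt9a are highest in mesothelium, and Wnt16 is highest in oviduct mesenchyme at 316 and 285 CPM.

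The order of levels differed from ligand to ligand. For Wnt16 oviduct mesenchyme (mean 300.4 CPM) led, then oviduct epithelium (89.4) and oviduct smooth muscle (83.4), and no library of one overlapped the next. Wnt4 ran from uterine mesenchyme (181 CPM) over uterine smooth muscle (140.4) to oviduct mesenchyme (129.8), all apart. For Wnt5a oviduct mesenchyme (280.2) was apart from uterine smooth muscle (248), which overlapped oviduct smooth muscle (234). Wnt6 in mesenchyme of the uterus (111) and of the oviduct (105) overlapped, and both were apart from smooth muscle of the uterus (40.4). Wnt5b was highest in uterine mesothelium (28.7), apart from uterine smooth muscle (24.1), oviduct epithelium (23.5) and uterine mesenchyme (22.3), which overlapped one another in turn. For Wnt11 oviduct epithelium (69.8) was followed by oviduct mesenchyme (20.1), again apart.

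Layers were compared in the joint fit of 16 sums, as the mean of both organs and against mesenchyme. Wnt2 and Wnt9a entered this fit only through the other layers, since epithelium held 1 and 9 of their UMIs over the 4 libraries, and are not counted for epithelium. The other 8 ligands passed between epithelium and mesenchyme, 3 higher and 5 lower, beside 66.9% of all genes (28.3% higher, 38.6% lower). Wnt7a (log2 fold change 7.72 ± 0.15), Wnt7b (4.95 ± 0.21) and Wnt11 (0.69 ± 0.15) were higher in epithelium. Mesenchymal Wnt7a had 11 oviduct and 25 uterine UMIs, of which 14.5% and 5.74% could be free RNA. The SE of Wnt7a can thus be narrower than counting error. Wnt6 (-3.92 ± 0.14) and Wnt16 (-3.06 ± 0.20) were lower there than in mesenchyme, and Wnt5a, Wnt5b and Wnt4 fell by 1.98, 1.79 and 1.76 (edgeR adjusted p at most 0.000354 for these 8). The organ effects of these layers differed for Wnt5a, Wnt5b, Wnt6, Wnt11 and Wnt16, as given further on, so these means hide organ differences. For Wnt16, oviduct epithelium had a mean of 89.4 CPM against 300.4 in oviduct mesenchyme. Uterine epithelium had 1.48 CPM, from 5 UMIs, against 24.1 in uterine mesenchyme. The SE of Wnt16 can thus be narrower than counting error. For Wnt5b and Wnt11 the layers did not keep the same order in both organs. Oviduct epithelium had more Wnt5b than oviduct mesenchyme (means 23.5 and 11.9 CPM), and uterine epithelium less than uterine mesenchyme (1.12 and 22.3). Wnt11 was higher in epithelium in the oviduct only, since its uterine libraries overlapped between the layers (means 9.17 and 9.76 CPM). The median of all genes was -0.14 in this comparison and 0.25 with the size factors of DESeq2, under which these 8 directions and calls stayed as they were.

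Wnt7a is not counted for smooth muscle, with 1 oviduct and 9 uterine UMIs, or for mesothelium, with 2 and 1. Smooth muscle differed from mesenchyme in 7 of the other 9 ligands, 1 higher and 6 lower, beside 25.3% of all genes (11.6% and 13.7%). Wnt16 was lower by the most (-2.27 ± 0.11), then Wnt6 (-1.70 ± 0.08), Wnt11 (-1.52 ± 0.10), Wnt4 (-0.67 ± 0.06), Wnt9a (-0.67 ± 0.15) and Wnt5b (-0.31 ± 0.11). Wnt7b was higher (1.45 ± 0.26) from a low level. Adjusted p was at most 0.0457, and the value of Wnt5b (0.32) and Wnt9a (0.0623) did not pass with DESeq2. For Wnt5a the log2 fold change was -0.01 (edgeR adjusted p = 0.948), the mean of a lower muscle level in the oviduct (234 against 280.2 CPM in mesenchyme) and a higher one in the uterus (248 against 205). Uterine Wnt5b overlapped between the layers (24.1 and 22.3 CPM). In mesothelium 7 of these 9 passed, 3 higher and 4 lower, beside 56.2% of all genes (24.2% and 32%). Wnt2 (4.71 ± 0.18), Wnt7b (3.57 ± 0.33) and Wnt9a (2.07 ± 0.15) were higher than in mesenchyme. Wnt16 (-4.50 ± 0.16), Wnt6 (-2.04 ± 0.11), Wnt4 (-0.85 ± 0.07) and Wnt5a (-0.71 ± 0.06) were lower (edgeR adjusted p at most 3.64e-09). The organ effects of these layers differed for Wnt4, Wnt5a, Wnt6, Wnt9a and Wnt16, as given further on, so these means hide organ differences. Oviduct Wnt16 was 3.61 CPM in mesothelium against 300.4 in mesenchyme. Uterine mesothelium held 0.675 and 9.93 CPM, 15 UMIs with 11 from a single cell, against a mesenchymal mean of 24.1. The SE of Wnt16 can thus be narrower than counting error. For Wnt4, oviduct mesothelium had 113 CPM against 129.8 in mesenchyme, and uterine mesothelium 87.2 against 181. Oviduct mesothelium held less Wnt5a than oviduct mesenchyme (means 136 and 280.2 CPM), while the uterine libraries overlapped between the layers (214 and 205). The median of all genes was -0.12 here and 0.22 with DESeq2, and these 7 calls held in both.

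The make-up of the ligand RNA followed these levels. UMI counts of 3' libraries do not grow with transcript length, so shares of the 10 ligands' UMIs are given as a description. Oviduct epithelium divided its ligand UMIs between Wnt16 (26.4%), Wnt11 (20.6%), Wnt5a (17.2%), Wnt4 (12.2%) and Wnt7a (11.2%), with 6.88% from Wnt5b. Uterine epithelium was led by Wnt7a (40.6%), Wnt5a (24.4%) and Wnt4 (19.1%), and Wnt16 made up 0.456%. In oviduct mesenchyme Wnt16 (35.1%) and Wnt5a (32.5%) led, in uterine mesenchyme Wnt5a (36.6%) and Wnt4 (32.4%). Wnt5a was the main ligand of smooth muscle in both organs, at 53.7% and 53.1%.

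**Figure D3:**
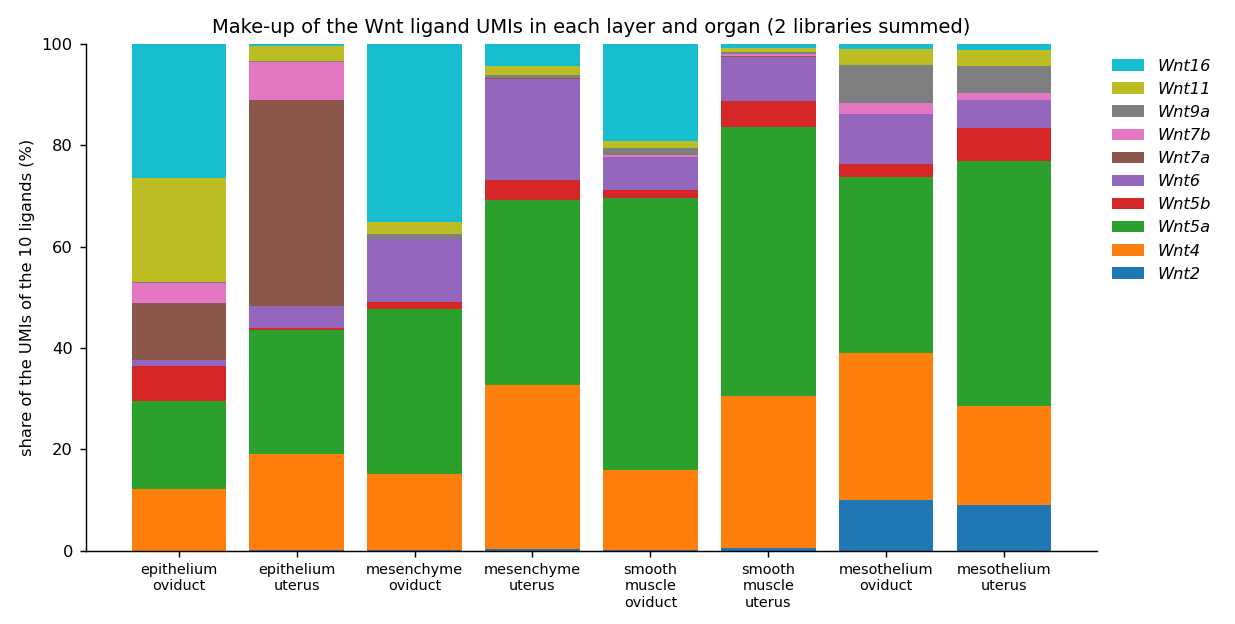
Share of each ligand in the UMIs of the 10 ligands (y axis, percent) by layer and organ (x axis), with both libraries of an organ summed. Wnt16 takes 26.4%, 35.1% and 19.1% of the oviduct epithelium, mesenchyme and smooth muscle bars and at most 4.32% of any uterine bar.

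Because mesenchyme and muscle form a range, the ligands were also read along it. All cells with at least 5 mesenchyme markers, few markers of other classes and any number of muscle markers were binned by their muscle-marker UMIs per 10000. Wnt16 was lower towards the muscle end in both organs: the oviduct means were 409, 201, 155 and 82.8 CPM from under 5 to 50 or more, and the uterine means 33.4, 18.2, 6.72 and 1.68. At each muscle-marker level the lowest oviduct library was above the highest uterine one. Wnt6 had the same order in both, from 140.4 to 27.6 CPM in the oviduct and from 136 to 33.0 in the uterus. Wnt11 went from 22.8 to 5.61 CPM in the oviduct and from 9.06 to 3.79 in the uterus.

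Wnt4 and Wnt5b peaked inside the range. Uterine Wnt4 was 154, 196, 189.5 and 133 CPM and oviduct Wnt4 131, 143, 104 and 62.5, so that the organs were closest in cells with least muscle marker. Uterine Wnt5b was 15.9, 23.4, 33.6 and 24.5 CPM against 10.6, 16.1, 11.6 and 6.49 in the oviduct. Wnt5a went from 195 to 254 CPM in the uterus and from 291 to 217 in the oviduct, so that the oviduct was above the uterus in the bin with least muscle marker and below it in the bin with most, without overlap in either. These bins are descriptions of 1285 to 2871 cells per organ and carry no test.

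**Figure D4:**
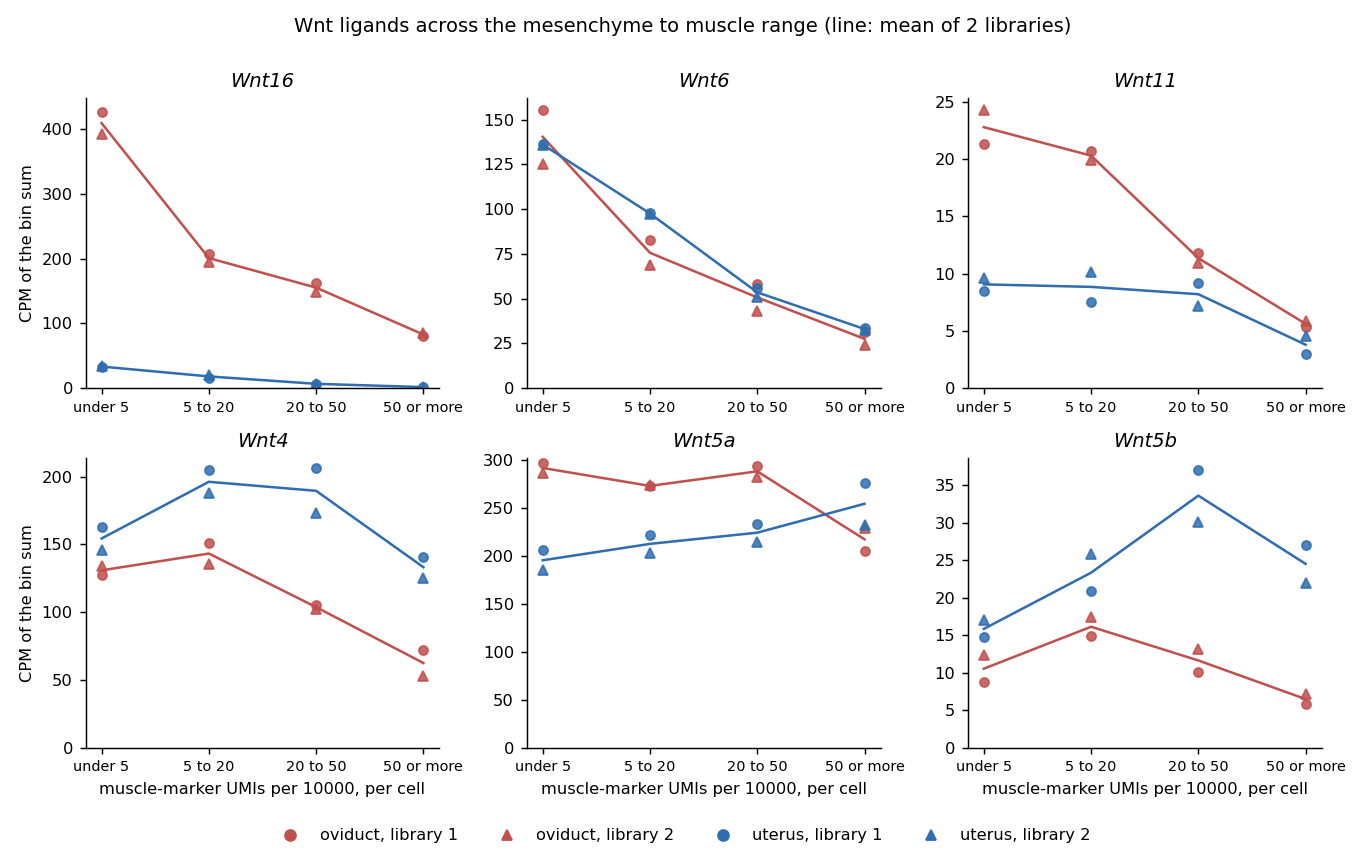
Level of 6 ligands (y axis, CPM of the bin sum, linear) in mesenchymal and muscle cells binned by muscle-marker UMIs per 10000 UMIs of the cell (x axis). Points are libraries and lines are means of 2 libraries. Oviduct Wnt16 goes from 409 to 82.8 CPM and stays above uterine Wnt16 in all 4 bins.

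Several organ effects differed between layers when that difference itself was tested. Against mesenchyme, 5 of 8 ligands passed in epithelium, 3 with a positive and 2 with a negative difference (20.2% of all genes passed, 10.8% positive and 9.43% negative). Smooth muscle had 5 of 9, 1 positive and 4 negative (6.85% of all genes, 1.98% and 4.87%), and mesothelium 6 of 9, 2 and 4 (16.8%, 7.46% and 9.36%). Wnt2 and Wnt9a in epithelium and Wnt7a in smooth muscle and mesothelium are left out of these counts for their few UMIs. Each of the 5 calls in smooth muscle was lost under at least 1 alternative: Wnt2 without the second oviduct or either uterine library (adjusted p 0.0856 to 0.16) and with the stricter gate (0.0559), Wnt4 without the second oviduct (0.203) or first uterine library (0.0508), Wnt5a without the first oviduct library (0.0918), and Wnt5b and Wnt16 with DESeq2 (0.273 and 0.501), with the stricter gate (0.229 and 0.246) and without the second uterine library (0.125 and 0.161), Wnt5b also without the first (0.37). In mesothelium the calls of Wnt6, Wnt9a, Wnt11 and Wnt16 were lost under at least 1 alternative, those of Wnt4 and Wnt5a under none of those run. Classes from clusters were not run for these differences. In epithelium the organ effect was more towards the oviduct for Wnt5b (5.38), Wnt16 (2.44 ± 0.60) and Wnt11 (2.01 ± 0.24), and more towards the uterus for Wnt6 (-1.38) and Wnt5a (-0.73). The Wnt6 value was -0.887 without the second uterine library, and its call did not hold. For Wnt7a the difference of organ effects was 0.01 with 36 mesenchymal UMIs behind it, which cannot resolve a difference. In mesothelium the Wnt16 effect was lower by 4.05 on the log2 scale (± 0.68, edgeR adjusted p = 0.000175). This rests on the second uterine library, with its 1 cell of 11 UMIs: without that library it was -1.14 (adjusted p = 0.75).

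Shares of cells with at least 1 UMI are depth dependent, so each cell was also thinned to 5000 UMIs, leaving out shallower cells (78 to 264 per library in mesenchyme). Wnt16 was found in 58.2% and 53.8% of oviduct mesenchymal cells and in 16.7% and 16.9% of uterine ones, and after thinning in 49.7% and 46.3% against 8.06% and 9.40%. Blood endothelium, which serves as background, had 2.27% and 0% in the oviduct against 0% in both uterine libraries after thinning, at median depths of 15530.5 to 18880.5 UMIs against 10569 to 14377 in mesenchyme. In epithelium thinned Wnt16 was in 28.3% and 32.9% of oviduct cells and in 0 of 28 and 0 of 23 uterine cells. Without thinning, 71 of 103 and 123 of 190 oviduct cells and 2 of 36 and 3 of 36 uterine cells held it. The thinned zeros allow shares at that depth of up to 10.7% and 13.0% (3 cells, counting error only). Thinned Wnt7a was in 13.0% and 14.2% of oviduct and 57.1% and 43.5% of uterine epithelial cells, and Wnt11 in 32.6% and 26.5% against 0% and 4.35%. In blood endothelium thinned Wnt7a was in 0% and 0% of oviduct and 0% and 0.699% of uterine cells. Wnt11 was there in 0.758% and 0% against 2.29% and 0.699%. The uterine epithelial shares of Wnt11 rest on 28 and 23 thinned cells, too few to be placed against this background. Without thinning, Wnt11 was in 6 of 36 and 9 of 36 uterine epithelial cells (median depths 17523 and 28513 UMIs). In uterine blood endothelium it was in 3 of 150 and 9 of 164 cells (15812 and 18880.5). The mean levels were 9.17 and 1.23 CPM. Thinned Wnt2 was in 16.2% and 12% of oviduct and 17.6% and 25.0% of uterine mesothelial cells, with 0% in blood endothelium.

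In thinned oviduct mesenchyme Wnt6 and Wnt16 were found together in 25.0% and 19.4% of cells. The product of their separate shares was 17.2% and 12.9%. Among cells with Wnt6, 72.1% and 69.6% held Wnt16, against 37.8% and 37.3% of cells without it. Both ligands were also lower towards the muscle end of the range, and the part of that in their overlap was not tested. In uterine mesenchyme the same pair was found in 3.20% and 4.67% of cells, with products of 3.09% and 3.72%. Wnt5a and Wnt16 were together in 38.8% and 35.3% of oviduct mesenchymal cells (products 33.5% and 30.8%), and Wnt4 and Wnt16 in 17% and 13.8%, below their products of 19.1% and 16.8%. In oviduct epithelium Wnt11 and Wnt16 met in 7.61% and 9.03% of thinned cells, near the product of 9.22% and 8.70%.

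Vessel and immune cells held less ligand RNA. Blood endothelium had Wnt4 at 10.7 to 18.8 CPM and Wnt5a at 4.40 to 9.69 CPM, and no other ligand above 8.13. Pericytes carried Wnt5a (67.9 to 126 CPM) and Wnt4 (53.4 to 88.2 CPM). Their sums also held mesenchyme markers at 22.1 to 32.2 and muscle markers at 19.9 to 46.7 per 10000, and under the stricter class definition the oviduct means went from 76.4 to 56.9 CPM for Wnt5a and from 57.1 to 38.9 CPM for Wnt4. Immune cells of the oviduct had Wnt16 at 45.0 and 17 CPM, from 9 and 2 cells with up to 10 UMIs in 1 of them. These immune sums also carried mesenchyme markers, all 10 detected, at 9.23 to 21.9 per 10000, against 3.81 to 10.9 in the uterus. The part of such RNA in the pericyte and immune values was not tested, and no organ test was run on these classes. Among the other 9 ligands of the matrices Wnt2b reached 13.8 ± 0.96 CPM in oviduct and 14.5 ± 3.42 in uterine mesothelium (SD, n = 2 libraries), and Wnt10a 2.03 ± 0.64 and 2.12 ± 0.09 in mesenchyme. The mesothelial level of Wnt2b was above that of Wnt7b (means 8.22 and 6.21 CPM). Wnt2b was higher in oviduct than uterine mesenchyme (2.30 against 0.533 CPM, log2 fold change 2.04 ± 0.28, edgeR adjusted p = 8.52e-05) and smooth muscle (1.92 against 0.722 CPM, 1.42 ± 0.41, adjusted p = 0.0197).

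For each ligand the 3 genes with the most similar log2(CPM + 1) profile were listed over the 28 sums of 7 classes and 4 libraries, among 13057 genes. The sums share libraries and classes, so the correlations describe and carry no p. Wnt7a was most like Vwa2, Myh14 and Tmem54 (Pearson r = 0.99 for all 3), Wnt7b like Il17re, Eppk1 and Krt17 (0.97, 0.96 and 0.96). Wnt16 was less closely matched, by Col23a1 (0.88), Coch (0.86) and Nr2f1 (0.81), and Wnt11 by Stxbp6 (0.89), Rai2 (0.88) and Slc1a3 (0.88). Wnt5a was most like the receptor gene Fzd2 (0.97), then Cacna1g (0.96) and Epb41l3 (0.94). Wnt6 was matched by Col6a6 (0.91), Sfrp1 (0.90), an extracellular Wnt antagonist, and Clmp (0.88), and Wnt4 by Rab11fip2 (0.91), Scara3 (0.91) and Ebf4 (0.90). The mesothelial Wnt2 was most like Kcns3 (0.93), Ccbe1 (0.91) and Prph (0.90), Wnt9a like Gpr85 (0.95), Bmper (0.95) and Mst1r (0.93), and Wnt5b like Tshz1 (0.89), Chchd7 (0.87) and Abhd14a (0.86). Among the ligands themselves Wnt4 and Wnt5a were closest (0.87), followed by Wnt5a and Wnt6 (0.84).

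Genes for secretion, reception and feedback of Wnt signals were read in the same tests. Wls, the carrier of Wnt proteins, was lower in oviduct than uterine epithelium at 109 ± 2.31 against 237 ± 53.4 CPM (SD, n = 2, log2 fold change -0.98, edgeR adjusted p = 0.000901). It was the 1 of 2 secretion genes to pass there. Of 18 receptor and co-receptor genes, 17 were tested in epithelium and 8 passed, beside 21.2% of all genes, 2 with more in the oviduct and 6 with more in the uterus. In mesenchyme 9 of 17 passed, beside 43.1% of all genes, 4 with more in the oviduct and 5 with more in the uterus. The receptor genes Fzd4 (13.2 against 1.22 CPM, log2 fold change 3.39) and Fzd8 (15.5 against 2.03, 2.88) were higher in oviduct mesenchyme, and Fzd1 (36.4 against 90.9, -1.37) in uterine mesenchyme. In smooth muscle 9 of the 17 tested passed, 5 towards the oviduct and 4 towards the uterus, beside 32.1% of all genes. Fzd4 (3.50), Fzd8 (2.60) and Fzd1 (-1.67) had the same directions there as in mesenchyme. Mesothelium had 3 of 16, beside 7.96% of all genes: Fzd8 (1.58) towards the oviduct and Fzd1 (-1.69) and Fzd7 (-1.33) towards the uterus.

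Feedback targets, genes that beta-catenin signalling often induces, were called in both directions, in a share of the list that is read against the same percentages of all genes (21.2%, 43.1%, 32.1% and 7.96% in epithelium, mesenchyme, smooth muscle and mesothelium). In epithelium 3 of the 8 tested passed, 2 with more in the oviduct and 1 with more in the uterus. Notum, a secreted enzyme that inactivates Wnt, was at 20.2 ± 6.84 CPM in oviduct and 2.09 ± 0.11 in uterine epithelium (log2 fold change 3.40, edgeR adjusted p = 4.18e-05), Lef1 at 4.08 against 1.12 (1.88), and Znrf3 at 17.9 against 41.2 (-1.06). The uterine values of Notum and Lef1 rest on 7 and 4 UMIs, and Lef1 passed narrowly (edgeR adjusted p = 0.0486). In mesenchyme 6 of 10 passed, 2 higher in the oviduct (Sp5, with 146 UMIs against 2, and Notum, 1.20) and 4 in the uterus, among them Apcdd1 (-1.16), Nkd2 (-0.98) and Lef1 (-0.85). Smooth muscle had 8 of 10, 5 and 3, with Sp5 listed at 28 oviduct UMIs and none in the uterus. In mesothelium 4 of 10 passed, Sp5 (0.81) towards the oviduct and Notum (-1.63), Nkd2 (-1.61) and Nkd1 (-0.51) towards the uterus. Notum thus ran towards the oviduct in epithelium, mesenchyme and smooth muscle and towards the uterus in mesothelium, and its organ effect in mesothelium differed from that in mesenchyme by -2.81 (adjusted p = 1.74e-06).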

How the data were processed

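Single-cell RNA libraries of 2 oviduct and 2 uterus pools were deposited as UMI counts per gene and barcode, which the authors made with Cell Ranger 6.0.1 (called cells) and 4 (all barcodes), per the file headers. The build is mm10, and Seurat 4.2.3 is named, per the submitters' processing notes; the annotation and the use of intronic or antisense reads were not given in any source used here.

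Barcodes under 500 genes or over 15% mitochondrial UMIs were dropped, and the top Scrublet scores (scanpy 1.11.5) removed at 0.8% per 1000 barcodes. A cell joined a class with at least 5 distinct markers of it (6 of 9 for smooth muscle; mesenchyme with at most 4 muscle markers). Cells passing for several classes, or with over 33.33% of the haemoglobin share of free RNA, were left out. The markers, the 10 ligands and the gene lists were chosen with earlier results of these data known; the class limits were set after marker levels were seen. Haemoglobin gave an upper bound on free RNA.

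Counts were summed per library and class and tested with edgeR 4.0.16 (R 4.3.3; TMM, filterByExpr, quasi-likelihood F-test, 2-sided, Benjamini-Hochberg). The SE of a log2 fold change is its size divided by the square root of the F statistic. Where few UMIs were counted, this SE can be narrower than counting error alone. The joint fit of 16 sums had library, class and organ by class as terms. The organ tests within a layer and the joint-fit contrasts of epithelium against mesenchyme were checked on simulated data. There the share of false calls was above the nominal level in mesenchyme, in smooth muscle and for the organ effect of epithelium against mesenchyme. The joint-fit contrasts of smooth muscle and mesothelium against mesenchyme were not checked. Apart from the added changes, a simulated gene had the same mean level in all sums of a fit and no library effect. Genes with few UMIs in only some classes were thus not represented. CPM are unscaled shares of the class sum, and counting intervals cover counting error only. Named genes are all 10 ligands, the 3 most similar genes of each (at least 200 UMIs; markers, Gm and Rik genes left out) and the 3 largest called changes per direction of each pathway list. Of the listed identifiers 99.6% are in GENCODE M21, used for positions. Both organs of a pool came from the same pups per the labels, and the replicate number is taken to mark the pool: the difference between replicates 1 and 2 correlated between the organs at -0.058 in epithelium, 0.168 in mesenchyme, 0.171 in smooth muscle and 0.109 in mesothelium. Alternatives were DESeq2 1.42.0, no filter on low counts, each library left out, the replicate number as a block, a stricter gate, Leiden clusters, doublets kept and ambient counts subtracted. The block and the clusters were run for the organ tests within a layer only, not for the joint fit.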

Additional observations from a re-analysis of the deposited data

Results flagged for a closer look

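These 16 values are differences between layers of the same organ contrast (oviduct minus uterus, log2 scale, edgeR, joint fit), each tested as a difference. In epithelium minus mesenchyme they were -0.73 for Wnt5a, 5.38 for Wnt5b, -1.38 for Wnt6, 2.01 for Wnt11 and 2.44 for Wnt16. Without the second uterine library Wnt6 was no longer called (-0.887, adjusted p = 0.189).

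In smooth muscle minus mesenchyme they were -2.41 for Wnt2, -0.55 for Wnt4, -0.51 for Wnt5a, -0.78 for Wnt5b and 0.84 for Wnt16. Each of these 5 lost its call under at least 1 alternative.

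In mesothelium minus mesenchyme they were 0.94 for Wnt4, -1.01 for Wnt5a, 0.88 for Wnt6, -0.85 for Wnt9a, -1.08 for Wnt11 and -4.05 for Wnt16. Wnt4 and Wnt5a kept their call under every alternative run, which for the joint fit did not include cluster classes. The first uterine library decided the calls of Wnt6 (0.365 without it, adjusted p = 0.363) and Wnt9a (-0.375, 0.614), which DESeq2 lost too (0.139 and 0.235), and the second that of Wnt16 (-1.14, 0.75). Wnt11 lost its call without either uterine library (0.0949 and 0.0585) and under the stricter gate (0.0799).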

How the results depend on the processing

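Of 600 re-tests of called ligand values, 556 kept direction and call, 44 kept direction but lost the call and 0 reversed. Of 333 re-tests of uncalled values, 286 were unchanged, 15 were called and 32 changed sign without a call. The 600 include the joint-fit calls of Wnt2 and Wnt9a in epithelium against mesenchyme, and the 333 include uncalled joint-fit values of ligands left out above. The replicate block is taken to pair the organs of a pool, which the sample titles do not state. With this block 2307 genes were called in epithelium (2510 without it), 6379 in mesenchyme (6370), 4902 in smooth muscle (4367) and 1490 in mesothelium (1009). The block changed 1 ligand call, that of mesothelial Wnt6. The joint fits hold the library as a term and had no other block. DESeq2 called 1190 genes in epithelium, 2655 in smooth muscle, 548 in mesothelium and 622 for the organ effect of smooth muscle against mesenchyme (1068 with edgeR), the last with 3 ligands in place of 5. The stricter gate gave 2187 genes in smooth muscle and 666 with 3 ligands for that organ effect. Leaving out 1 library gave 1422 to 2556 genes in epithelium (lowest without the second oviduct library), 2 to 4 ligands in mesothelium, 2557 to 3556 genes for smooth muscle against mesenchyme (3938 with all), and, for the organ effects against mesenchyme, 1971 to 2934 genes in epithelium (3157), 491 to 1106 with 2 to 4 ligands in smooth muscle and 1423 to 2515 with 3 to 7 ligands in mesothelium (2623 and 6). Leaving out the first or second uterine library gave the lowest counts of genes for these organ effects and for smooth muscle against mesenchyme.

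No value was called under the alternative that changed its sign, and the cause was not tested. Of the range ends below that kept the sign, 3 were called: Wnt6 in mesenchyme without the first oviduct library (adjusted p = 0.0212), Wnt16 in mesothelium without the first uterine library (0.0452) and Wnt5b in mesothelium against mesenchyme without the first oviduct library (0.0036). Under the stricter gate they were 0.298 for mesenchymal Wnt2, and as organ effects against mesenchyme 0.921 for epithelial Wnt7b, -0.283 and -0.067 for Wnt7b and Wnt9a in smooth muscle, and -0.215 and 0.107 for Wnt2 and Wnt7a in mesothelium. With cluster classes they were 0.273 for Wnt7b in smooth muscle and -0.042 and 0.053 for Wnt2 and Wnt11 in mesothelium. With doublets kept they were -0.102 and 0.861 for mesothelial Wnt2 and Wnt16. Wnt5a in smooth muscle against mesenchyme was 0.006 with DESeq2, 0.007 unfiltered and -0.035 to 0.028 with 1 library left out. Leave-one-out ranges were -0.657 to 0.436 (Wnt2) and -0.326 to 0.049 (Wnt6) in mesenchyme, -0.068 to 0.126 (Wnt2) and -1.437 to 2.435 (Wnt16) in mesothelium, and -0.455 to 0.088 for Wnt5b in mesothelium against mesenchyme. As organ effects they were -0.541 to 0.627, -0.449 to 0.173 and -1.800 to 4.679 for Wnt7a, Wnt7b and Wnt9a in epithelium, -0.241 to 0.686 for Wnt7b in smooth muscle, and -0.391 to 0.720 and -1.187 to 4.954 for Wnt2 and Wnt7a in mesothelium. The 36 uterine epithelial cells per library limit what low counts there can show.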
